A study of Mus musculus with 12 samples.

Results

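The genes described are the 5 subunits of the transcription factor NF-kappaB (Nfkb1, Nfkb2, Rela, Relb and Rel), the 3 classical inhibitors of the IkappaB family (Nfkbia, Nfkbib and Nfkbie), and 2 nuclear proteins related to those inhibitors (Nfkbiz and Nfkbid). They were taken by symbol through a GENCODE annotation of GRCm38 and make up 10 of the 48526 genes in the count table. All 10 were found, and all 10 were among the 15523 genes that passed the filter on low counts. The libraries were made from total RNA of cultured BMDMs, the macrophages that marrow cells of femur and tibia turn into in medium conditioned by L929 cells. The knockout (KO) mice are homozygous for a deletion at HSS9, an enhancer upstream of Tnf, the gene of the cytokine TNF alpha. The controls are wild-type (WT) C57BL/6 mice, which the labels call littermates and the methods of the study describe as purchased. By those methods all mice were young adult males, and the KO line was kept by homozygous breeding. Whether marrow was pooled is not stated. Cells of each genotype were left unstimulated (UT, with PBS) or received lipopolysaccharide (LPS), a component of bacterial outer membranes, for 6 hr. Each combination of genotype and treatment had 3 libraries, which gives 12 in 4 groups.

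NF-kappaB subunits work as dimers. In resting macrophages the dimers are held in the cytoplasm by IkappaB proteins. When LPS is sensed by Toll-like receptor 4, IkappaB kinases phosphorylate these inhibitors, which are then ubiquitinated and degraded, and the dimers enter the nucleus. Several of the genes they activate encode their own subunits and inhibitors, so that the pathway resets itself. A second route, the non-canonical one, processes the Nfkb2 product p100 into p52, which pairs with RelB. Nfkbiz and Nfkbid encode nuclear proteins that bind NF-kappaB on DNA and alter the expression of selected target genes.

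NF-kappaB dimers bind short DNA motifs called kappaB sites. RefSeq promoter windows of GRCm38.p6, covering 250 bases before to 50 bases after an annotated start, were matched for 7 of the 10 genes, with 11 windows. Nfkb1, Relb and Nfkbiz were not matched. A search on both strands for the strict kappaB consensus found a match in 7 of the 11 windows, against 8.46% of all 32851 windows of that length. These 7 belong to 5 genes (Nfkb2, Rel, Nfkbia, Nfkbie and Nfkbid), Nfkb2 with 3 windows of which 2 overlap, and the windows of Rela and Nfkbib held none. The looser pattern GGGNNNNNCC, which contains the strict one, was present in 50.8% of all windows and in 10 of the 11. The upstream stretches of Nfkbia, Nfkbie and Rel are shown because they lie outside annotated exons and hold a match, printed in capitals, in the direction of the gene. They cover chr12:55492648-55492897 on the minus strand, chr17:45555450-45555699 on the plus strand and chr11:23770971-23771219 on the minus strand.
Nfkbia: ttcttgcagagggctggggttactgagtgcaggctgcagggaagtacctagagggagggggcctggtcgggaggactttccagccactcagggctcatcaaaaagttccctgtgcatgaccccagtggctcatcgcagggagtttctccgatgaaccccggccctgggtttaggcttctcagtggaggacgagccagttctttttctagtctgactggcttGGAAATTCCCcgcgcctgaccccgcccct
Nfkbie: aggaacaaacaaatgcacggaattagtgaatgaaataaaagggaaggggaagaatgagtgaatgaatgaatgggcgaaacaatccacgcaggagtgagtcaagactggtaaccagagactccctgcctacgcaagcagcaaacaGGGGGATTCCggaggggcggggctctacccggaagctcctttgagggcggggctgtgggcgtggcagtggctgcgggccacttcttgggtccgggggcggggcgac
Rel: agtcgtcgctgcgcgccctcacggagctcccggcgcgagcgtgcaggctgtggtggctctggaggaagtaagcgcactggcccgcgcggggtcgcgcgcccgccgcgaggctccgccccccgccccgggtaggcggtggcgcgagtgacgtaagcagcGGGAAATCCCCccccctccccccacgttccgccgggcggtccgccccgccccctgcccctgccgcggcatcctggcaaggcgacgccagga

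The match in Nfkbia lay at positions -29 to -20 from the start, the match in Nfkbie at -106 to -97, and the overlapping pair in Rel at -92 to -82. For Nfkb2 and Nfkbid, whose windows with a match lie within the annotated gene, some sites are shown with 10 bases on each side. They are the site at -39 and the site at -11 of the first Nfkb2 window, at chr19:46304688-46304717 and chr19:46304716-46304745 on the plus strand, and the sites at -226 and -181 of the second Nfkbid window, at chr7:30422170-30422199 and chr7:30422215-30422244 on the plus strand. Both Nfkb2 stretches overlap an annotated exon, and neither Nfkbid stretch does. Not printed separately are the Nfkb2 matches at -38 of the first window and at -236 and 11 of the second. The match at 11 is also the one at -225 of the third window. A match of letters is a description of the sequence and was not compared with binding data.
Nfkb2 site -39: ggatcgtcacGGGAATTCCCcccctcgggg
Nfkb2 site -11: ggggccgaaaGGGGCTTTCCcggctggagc
Nfkbid site -226: gccccgccctGGGACTTCCCagagcaccac
Nfkbid site -181: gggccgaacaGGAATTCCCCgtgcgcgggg

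The gene models lay on 7 chromosomes. Nfkb1 (ENSMUSG00000028163.17) was at chr3:135584655-135691547 on the minus strand, Nfkb2 (ENSMUSG00000025225.14) at chr19:46304320-46312385 (+), Rela (ENSMUSG00000024927.7) at chr19:5637483-5648130 (+), Relb (ENSMUSG00000002983.17) at chr7:19606217-19629438 (-) and Rel (ENSMUSG00000020275.9) at chr11:23736847-23770970 (-). Nfkbia (ENSMUSG00000021025.7) was at chr12:55489410-55492647 (-), Nfkbib (ENSMUSG00000030595.15) at chr7:28758251-28767512 (-), Nfkbie (ENSMUSG00000023947.7) at chr17:45555703-45563169 (+), Nfkbiz (ENSMUSG00000035356.16) at chr16:55811375-55838899 (-) and Nfkbid (ENSMUSG00000036931.14) at chr7:30421732-30428746 (+). Exons of Nfkb2 shared 6.52% of their length with Psd and 11.58% with a noncoding gene, both on the opposite strand. Exons of Nfkbib shared 14.48% with Ccer2 and 1.94% with Sirt2, also on the opposite strand. Whether counting used strand is not given in the sources used here, so reads of these partners may be among the counts of Nfkb2 and Nfkbib. Psd, the noncoding gene and Ccer2 were too low to be tested.

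Library totals ranged from 26154533 to 36423921 counts. Values are CPM, counts rescaled to a common library total and then by TMM factors, which set the libraries to a common level over most genes. The TMM factors were 1.15 to 1.29 in UT libraries and 0.811 to 0.822 in LPS libraries, so that every LPS response stated here rests on this scaling more than the comparisons of KO with WT after LPS do. Passing meant an edgeR adjusted p under 0.05, and a gene that passed was called if its log2 fold change also exceeded 1 in either direction. Macrophage markers summed to between 27977 and 34557 CPM over the 12 libraries, and all 9 were detected. Some markers of other cell types also moved with LPS. B cell markers summed to 19.2 to 21.8 CPM in WT UT and 0.932 to 1.60 CPM in WT LPS, and to 38.2 to 40.2 CPM and 1.68 to 1.88 CPM in KO, most of it Ighm. Neutrophil markers summed to 20.5 to 22.0 CPM in WT UT and 50.5 to 79.6 CPM in WT LPS, and to 42.6 to 48.1 CPM and 67.3 to 76.8 CPM in KO. The higher sum was mainly S100a8 (means of 7.32 and 52.7 CPM in WT, 16.4 and 56.8 CPM in KO), with a part from Camp, whereas S100a9, Ltf and Ngp fell in both genotypes (S100a9 from 25.5 to 10.2 CPM in KO). Stromal markers summed to 6.20 to 6.82 CPM in WT UT and 22.8 to 25.2 CPM in WT LPS, and to 7.23 to 9.11 CPM and 29.5 to 31.3 CPM in KO. Pdgfrb made up most of that rise (0.966 and 19.8 CPM in WT, 1.26 and 19.7 CPM in KO). In WT Col1a1, Col1a2 and Sparc fell, whereas Dcn had a higher mean after LPS (0.398 and 0.789 CPM). In KO the means of Col1a2 (1.70 and 2.43 CPM), Col3a1 (0.702 and 1.87), Dcn (1.10 and 2.40) and Sparc (2.33 and 2.92) were higher after LPS. Those of Col1a1 and Pdgfra were lower in KO. T cell and dendritic cell markers summed to at most 9.42 and 15.2 CPM in any library. Of these, Lck (0.145 and 6.93 CPM in WT) and Ccr7 (log2 0.78 in WT and 0.93 in KO) rose in both genotypes, while Cd4 (1.92 and 0.457 CPM in WT) and Siglech fell. The part of these cells in the LPS responses was not tested. Tnf itself, the readout of the deletion, had 826, 905 and 938 CPM in WT LPS and 422, 449.5 and 425 CPM in KO LPS, a log2 difference of -1.04 (SE 0.0604, edgeR adjusted p = 2.8e-10). In UT cells Tnf was also lower in KO, at 9.10 to 10.5 CPM against 14.8 to 16.2 CPM (log2 -0.66, adjusted p = 1.3e-06).

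The first comparison asked how the subunits and inhibitors responded to LPS in WT cells. All 10 genes passed with higher values after LPS and 8 were called. Over all 15523 genes, 38.0% passed as higher and 19.1% were called higher. No gene of the 10 had overlapping libraries between WT UT and WT LPS, against 38.5% of all genes that were higher without overlap. The median log2 fold change of the 10 was 2.49, and that of all genes tested was 0.047. The 2 genes that passed without being called were Rela and Nfkbid.

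**Figure D1:**
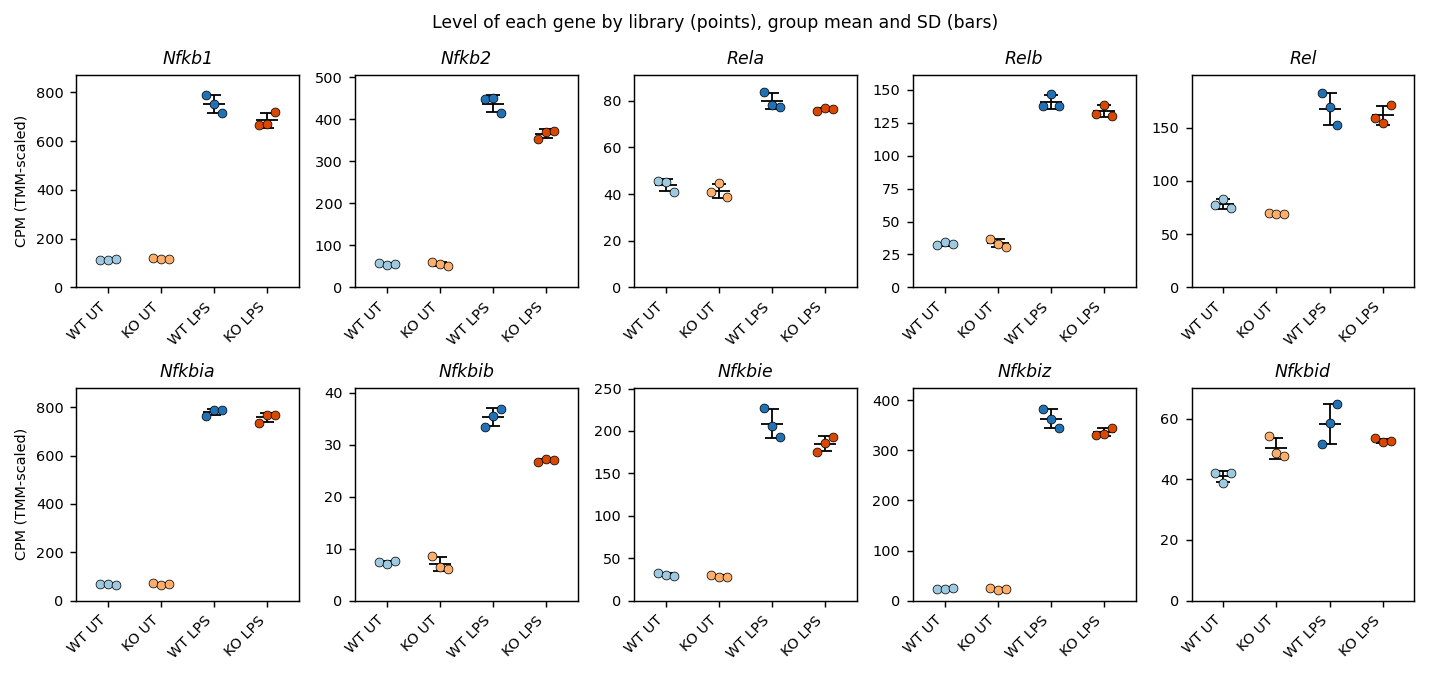
CPM (y axis, linear from 0, a different range in each panel) of each of the 10 genes in the 12 libraries, by group (x axis). Points are libraries, and bars are the group mean and SD (n = 3). Except for Nfkbid in KO, the LPS libraries of each genotype lay above its UT libraries for every gene.

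Nfkbiz, which encodes a nuclear co-regulator needed for a set of secondary response genes, had the largest log2 fold change of the 10. It had 22.5, 23.4 and 24.5 CPM in WT UT and 383, 362 and 345 CPM in WT LPS, a 15.5-fold difference (log2 3.95, SE 0.0666, adjusted p = 3.2e-22). Nfkbia encodes IkappaB alpha, the inhibitor that is degraded and remade fastest. It rose from 69.3, 66.9 and 64.3 CPM to 765, 789.5 and 786 CPM, or 11.7-fold (log2 3.55, SE 0.0610, adjusted p = 4.4e-22). In both genes the lowest LPS library stood far above the highest UT library.

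The remaining classical inhibitors also rose. Nfkbie, the gene of IkappaB epsilon, went from 32.8, 30.1 and 29.5 CPM to 227, 206 and 193 CPM (log2 2.76, SE 0.0692). Nfkbib, the gene of IkappaB beta, was the least abundant of the 10, with 7.46, 6.97 and 7.57 CPM in WT UT and 33.4, 35.6 and 36.9 CPM in WT LPS (log2 2.26, SE 0.0972). Its 3 WT UT libraries held 316 to 356 counts each, so the counting error was larger for Nfkbib than for the other 9 genes.

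Among the subunits, the 2 genes whose products are processed from long precursors had the largest responses. Nfkb2 (p100 and p52) rose from 58.3, 53.3 and 54.8 CPM to 448, 451 and 414 CPM (log2 2.98, SE 0.0659). Nfkb1 (p105 and p50) rose from 111, 114 and 118 CPM to 790.0, 753 and 716 CPM (log2 2.72, SE 0.0569). Relb, the partner of p52 in the non-canonical route, rose from 31.8, 34.1 and 32.8 CPM to 138, 147 and 137 CPM (log2 2.095, SE 0.0643).

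The other two subunits, which carry transactivation domains like RelB, moved less. Rel, the gene of c-Rel, had 77.3, 83.3 and 74.2 CPM in WT UT and 182, 169 and 152 CPM in WT LPS (log2 1.10, SE 0.0663). Rela, the gene of p65, had 45.5, 45.4 and 40.8 CPM and then 83.8, 78.1 and 77.5 CPM (log2 0.86, SE 0.0633). The LPS response of Rela was the smallest among the 5 subunits in both genotypes. Nfkbid, the gene of IkappaB NS, had 42.0, 38.8 and 42.1 CPM in WT UT and 51.6, 58.6 and 64.7 CPM in WT LPS (log2 0.51, SE 0.0731, adjusted p = 2.3e-06).

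The direction for Nfkbid depended on the scaling. With library totals and no scaling factors, an alternative added after the values had been seen, its WT LPS response was -0.16 (adjusted p = 0.0495), and the median of all genes moved to -0.62. Under the same alternative 9 of the 10 genes stayed higher after LPS in WT, Rel fell to 0.44 and Rela to 0.20, and 7 genes were called. Upper-quartile scaling put Nfkbid at 0.33 (adjusted p = 8.4e-04) and Rel at 0.92 in WT, with the median of all genes at -0.14.

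In KO cells 9 of the 10 genes passed with higher values after LPS and 8 were called, against 35.1% of all genes that passed as higher and 17.7% called higher. These 9 genes were without overlap between the groups, as were 36.6% of all genes in that direction. The median of the 10 was 2.27, and that of all genes was -0.055. The 8 genes called were the same 8 as in WT. Nfkbiz had 24.5, 21.5 and 22.6 CPM in KO UT and 330.1, 333 and 345 CPM in KO LPS (log2 3.88, SE 0.0669). Nfkbia had 73.2, 63.4 and 67.6 CPM and then 736, 768 and 769 CPM (log2 3.48, SE 0.0610). Nfkb2 had 60.4, 55.0 and 51.7 CPM and then 353, 371 and 373 CPM (log2 2.72, SE 0.0655). In all 3 genes the LPS libraries again stood several-fold above the UT libraries.

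The log2 responses of the other genes in KO were 2.68 for Nfkbie, 2.54 for Nfkb1, 2.00 for Relb, 1.95 for Nfkbib, 1.22 for Rel and 0.88 for Rela. Nfkbid was the exception, with 54.3, 48.5 and 47.8 CPM in KO UT and 53.5, 52.3 and 52.5 CPM in KO LPS (log2 0.07, SE 0.0729, adjusted p = 0.38). Its KO libraries overlapped, and the 95% interval ran from -0.08 to 0.22. With library totals and no scaling factors the Nfkbid difference in KO was -0.44 (adjusted p = 1.1e-05), with the median of all genes at -0.56, and with upper-quartile scaling it was -0.11. With the percentage of counts on small structured RNAs as a covariate it was 0.53 and passed (adjusted p = 7.3e-04).

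**Figure D2:**
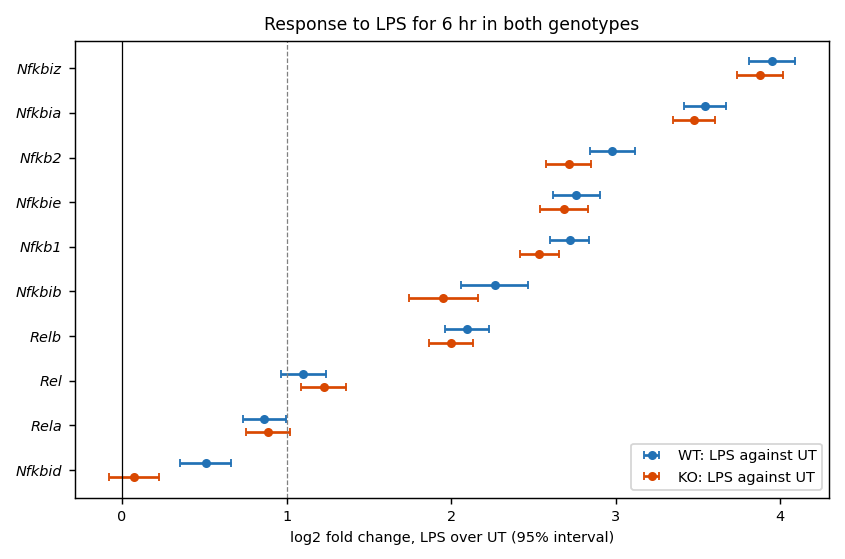
Log2 fold change of LPS over UT (x axis) with its 95% interval for each of the 10 genes (y axis, ordered by the WT value), in WT (blue) and KO (orange). The dashed line marks a log2 fold change of 1. WT values span 0.51 to 3.95, and KO values span 0.07 to 3.88.

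The comparison most direct for the deletion was KO LPS against WT LPS. All 10 genes had log2 differences below 0, from -0.39 to -0.04, with a median of -0.12 against -0.0075 over all genes. Of the 10, 2 passed, both lower in KO, where 6.54% of all genes passed as lower. None of the 10 was called, against 1.25% of all genes called in either direction. At an unadjusted p below 0.05, 4 of the 10 were lower, the other two being Nfkb1 and Nfkbie, where 14.0% of all genes were lower at that threshold. DESeq2 also called 0 of the 10.

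Nfkb2 had 448, 451 and 414 CPM in WT LPS and 353, 371 and 373 CPM in KO LPS, so that the highest KO library lay below the lowest WT library. The difference was 16.4% (log2 -0.26, SE 0.0607, adjusted p = 0.0067). Nfkbib had 33.4, 35.6 and 36.9 CPM in WT LPS and 26.7, 27.3 and 27.0 CPM in KO LPS, also without overlap. It was 23.4% lower in KO (log2 -0.39, SE 0.0904, adjusted p = 0.0067). Sirt2, which shares a small stretch with Nfkbib on the opposite strand, had a log2 difference of 0.05 in the same comparison (adjusted p = 0.71). With the same small RNA covariate, Nfkbib no longer passed (log2 -0.21, adjusted p = 0.32). That share was 4.04 to 6.89% in WT LPS and 3.23 to 3.43% in KO LPS, and its part in the result was not tested further.

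The other 8 genes did not pass. Nfkb1 had 790.0, 753 and 716 CPM in WT LPS and 665, 669.9 and 719.9 CPM in KO LPS, with overlap (log2 -0.14, 95% interval -0.25 to -0.03, adjusted p = 0.092). Nfkbie had 227, 206 and 193 CPM and 176, 186 and 193 CPM (log2 -0.17, 95% interval -0.31 to -0.04, adjusted p = 0.073). Both intervals lay below 0 before adjustment over all genes. Both genes passed, lower in KO, with upper-quartile scaling, a mean CPM of at least 1, protein-coding genes only and the small RNA covariate.

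Nfkbia, the gene of the main inhibitor, had 765, 789.5 and 786 CPM in WT LPS and 736, 768 and 769 CPM in KO LPS, a log2 difference of -0.04 (95% interval -0.16 to 0.07). Rela had 83.8, 78.1 and 77.5 CPM against 75.6, 77.0 and 76.4 CPM, without overlap yet with a difference of only -0.07 (95% interval -0.20 to 0.07). In all, 3 of the 10 genes were lower without overlap (Nfkb2, Nfkbib and Rela), a pattern that 14.9% of all genes had. For Relb, Rel, Nfkbiz and Nfkbid the log2 differences were -0.07, -0.06, -0.11 and -0.14, and the libraries overlapped.

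Leaving out WT LPS replicate 3 raised the number of genes that passed in KO LPS against WT LPS from 2 to 4. Rel stood at 0.0063 without WT LPS replicate 1, in place of -0.06. Stromal cell markers summed to 22.8 to 25.2 CPM in WT LPS and 29.5 to 31.3 CPM in KO LPS, and 5 of 7 tested were called higher in KO. Pdgfrb made up most of this sum, with a mean of 19.8 CPM in WT LPS and 19.7 CPM in KO LPS, whereas the 5 called markers (Col1a1, Col1a2, Col3a1, Dcn and Sparc) had log2 differences of 1.19 to 1.60. Neutrophil markers summed to 50.5 to 79.6 CPM and 67.3 to 76.8 CPM in those groups, with Ly6g at 0. The part of these cells in the results was not tested, and with bulk RNA fewer cells with a transcript and less of it per cell cannot be told apart.

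**Figure D3:**
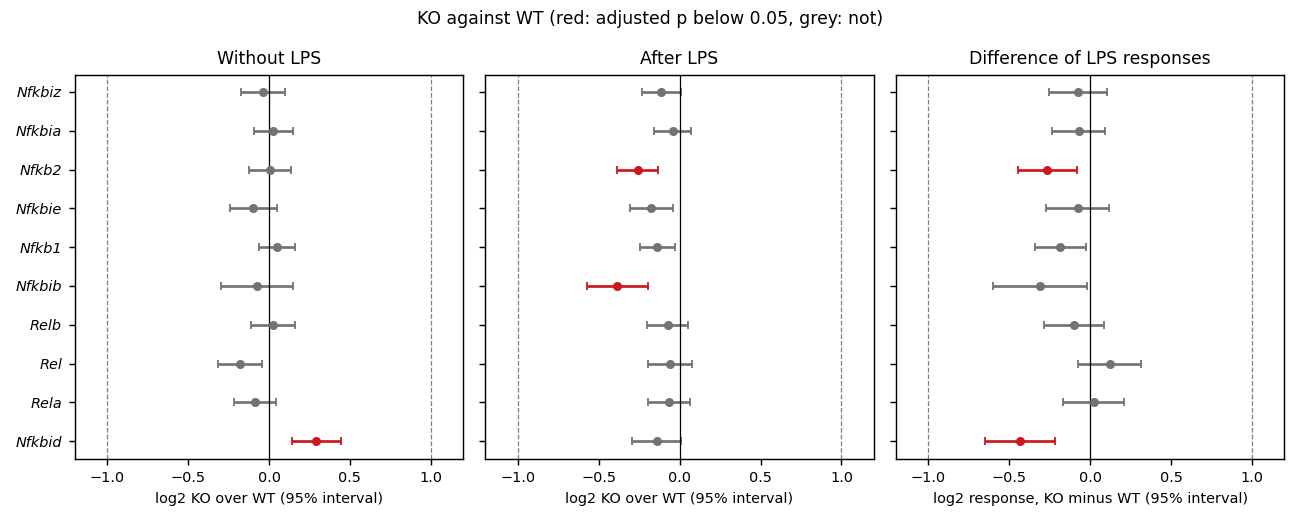
Log2 difference of KO from WT in UT cells (left) and after LPS (middle), and the difference of the LPS responses, KO minus WT (right), each with its 95% interval, for the 10 genes (y axis). Red marks an adjusted p below 0.05 in the edgeR fit, and dashed lines mark -1 and 1. Nfkb2 and Nfkbib are red after LPS, Nfkbid in UT cells, and Nfkb2 and Nfkbid in the difference of responses.

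In UT cells, KO against WT, 1 of the 10 genes passed, higher in KO, where 14.1% of all genes passed as higher. None was called, against 1.82% of all genes in either direction, with DESeq2 also at 0, and 2 of the 10 had an unadjusted p below 0.05, against 34.3% of all genes. The gene that passed was Nfkbid, with 42.0, 38.8 and 42.1 CPM in WT UT and 54.3, 48.5 and 47.8 CPM in KO UT. The groups did not overlap, as was the case for 21.6% of all genes that were higher. Nfkbid was 22.5% higher in KO (log2 0.29, SE 0.0722, adjusted p = 0.0046). This result depended on the scaling and on 1 covariate. With library totals and no scaling factors it was 0.14 and did not pass (adjusted p = 0.13), and with the small RNA share as a covariate it was -0.19.

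Several library-level values moved with the Nfkbid difference. The small RNA share was 3.00 to 3.25% in WT UT and 6.64 to 7.98% in KO UT. B cell markers summed to 19.2 to 21.8 CPM in WT UT and 38.2 to 40.2 CPM in KO UT, and Ighm made up nearly all of this. Pax5, a transcription factor gene that defines B cells, had 2 counts over the 3 WT UT libraries and 0 over the 3 KO UT libraries. Cd79b, the only B cell marker tested besides Ighm, had 40, 34 and 54 counts in WT UT and 37, 58 and 50 in KO UT. Its means were 0.945 and 1.35 CPM, with overlap. Neutrophil markers summed to 20.5 to 22.0 CPM in WT UT and 42.6 to 48.1 CPM in KO UT, with 4 of 6 tested called higher and Ly6g at 0 in every library. Their part in the Nfkbid result was not tested.

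Rel was the only one of the 10 that was lower in KO UT without overlap, a pattern of 19.1% of all genes. It had 77.3, 83.3 and 74.2 CPM in WT UT and 69.5, 69.3 and 68.5 CPM in KO UT (log2 -0.18, SE 0.0663, adjusted p = 0.055). It missed the threshold here and passed under 7 of the alternatives, which were DESeq2, RLE scaling, upper-quartile scaling, the mean CPM filter, the compared groups alone, protein-coding genes only and library totals without scaling factors. With the small RNA share as a covariate the Rel difference turned sign, to 0.14, and did not pass. The other 8 genes had log2 differences between -0.10 and 0.05, and none of their intervals excluded 0. Nfkb2, which was lower in KO after LPS, had 58.3, 53.3 and 54.8 CPM in WT UT and 60.4, 55.0 and 51.7 CPM in KO UT (log2 0.01, 95% interval -0.13 to 0.14).

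The test of the difference between the LPS responses of KO and WT passed for 2 of the 10 genes, both smaller in KO, where 9.50% of all genes passed in that direction and 7.32% in the other. None was called, against 2.16% of all genes. Before adjustment 4 of the 10 had a p below 0.05, all smaller in KO, where 15.5% of all genes were, and DESeq2 called 0. For Nfkbid the response was 0.51 in WT and 0.07 in KO, a difference of -0.43 (SE 0.103, adjusted p = 0.0056). For Nfkb2 it was 2.98 in WT and 2.72 in KO, a difference of -0.26 (SE 0.0876, adjusted p = 0.043).

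The Nfkb2 difference of responses was fragile. With the replicate number as a block it was -0.26 with an adjusted p of 0.065, and with library totals and no scaling factors it was -0.11 (adjusted p = 0.40). It also did not pass with DESeq2 (-0.18, adjusted p = 0.11), with RLE scaling (-0.18, adjusted p = 0.14) or without the filter on low counts (-0.23, adjusted p = 0.091). The number of genes that passed fell from 2 to 1 when any of WT UT replicates 2 and 3, KO UT replicates 1 and 2, WT LPS replicate 2 or KO LPS replicates 1, 2 and 3 was left out. Nfkbid passed in each of those fits and became 0.29 with the small RNA covariate. Nfkbib, lower in KO after LPS, had a difference of responses of -0.31 that did not pass (adjusted p = 0.14), so a genotype effect limited to LPS-treated cells was not shown for it.

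Levels can be compared between genes only per transcript length, and here CPM was divided by the length of the merged exons in kb. Nfkbia had the highest level per kb in all 4 groups, at 41.5 ± 1.53 in WT UT, 42.3 ± 3.04 in KO UT, 485 ± 8.21 in WT LPS and 470.5 ± 11.4 in KO LPS (CPM per kb, SD, n = 3). Nfkbib had the lowest, at 3.38 ± 0.147, 3.22 ± 0.622, 16.3 ± 0.808 and 12.4 ± 0.124. In WT UT the order after Nfkbia was Nfkbid, Rela, Nfkb2, Rel, Nfkbie, Nfkb1, Relb and Nfkbiz, and the libraries of Rel and Nfkbie and those of Nfkbie and Nfkb1 overlapped.

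After LPS the order of WT levels per kb was Nfkbia, Nfkb2, Nfkbiz, Nfkbie, Nfkb1, Relb, Rela, Nfkbid, Rel and Nfkbib. Nfkbiz moved from rank 9 to rank 3, with 4.68 ± 0.192 in WT UT and 72.4 ± 3.78 in WT LPS. Nfkbid moved from rank 2 to rank 8, with 17.5 ± 0.808 and 24.9 ± 2.79. The libraries of Nfkbiz and Nfkbie, of Nfkbie and Nfkb1, of Rela and Nfkbid, and of Nfkbid and Rel overlapped, so these neighbours did not separate beyond their spread. The order in KO LPS was the same. These places depend on the gene model, since the merged exons of Nfkb1 are 12061 bases long and its coding sequence 2913. Per kb of coding sequence Nfkb1 stood at 258 ± 12.8 in WT LPS, above Nfkb2 at 162 ± 7.45. The means of Nfkbie (188 ± 15.2) and Nfkbiz (166 ± 8.68) were also above that of Nfkb2. By the same measure Nfkbid in WT UT, at 29.1 ± 1.34, stood below Rel at 44.4 ± 2.63 and Nfkb1 at 39.2 ± 1.19.

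The makeup of the subunit pool was expressed as the percent that each subunit held of the summed level per kb of the 5, a measure that does not change with library scaling. In WT the share of Nfkb2 was 22.1% ± 1.11 in UT and 39.4% after LPS, and that of Nfkb1 was 17.3% ± 0.897 and 25.7% ± 0.423 (SD, n = 3). The share of Rela was 26.1% in UT and 10.7% after LPS, and that of Rel was 19.1% ± 0.788 and 9.26% ± 0.457. None of these groups overlapped. Relb held 15.5% and 14.9%, with overlap. KO cells showed shares of 22.8% and 36.7% for Nfkb2, 18.4% and 26.1% for Nfkb1, 25.3% and 11.4% for Rela, 17.4% and 9.94% for Rel, and 16.2% and 15.8% for Relb.

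Between genotypes after LPS, the Nfkb2 share was 2.67 percentage points lower in KO and the Rela share 0.71 points higher, each without overlap. The Rel share was 1.72 points lower in KO UT than in WT UT, also without overlap. Per kb of coding sequence the Rela shares of the genotypes overlapped after LPS (up to 7.66% in WT and from 7.64% in KO), whereas the Nfkb2 shares after LPS and the Rel shares in UT cells did not. With 3 libraries against 3 the exact two-sided permutation test cannot go below p = 0.10, which each of these differences reached, and after Benjamini-Hochberg adjustment over 24 such comparisons the smallest p was 0.17. None of these differences in share can therefore pass a threshold of 0.05 by this test. Per kb of coding sequence the LPS directions of the 4 shares that moved were kept, with Nfkb1 at 26.1% and 39.9% and Nfkb2 at 13.7% and 25.0% in WT.

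The summed level per kb of the 3 classical inhibitors was set against that of the 5 subunits. The ratio was 1.00 ± 0.0284 in WT UT, 1.03 ± 0.0644 in KO UT, 2.35 ± 0.105 in WT LPS and 2.50 ± 0.0234 in KO LPS (SD, n = 3). The LPS libraries lay above the UT libraries in both genotypes (exact permutation p = 0.1, the smallest possible). After LPS the KO ratios of 2.49 to 2.53 lay above the WT ratios of 2.26 to 2.47, a difference of 0.149 with the same p. Per kb of coding sequence the ratios after LPS were 1.69 ± 0.0281 in KO and 1.62 ± 0.0713 in WT, and the libraries overlapped. Nfkbia supplied most of the inhibitor level after LPS. The ratio compares transcripts and says nothing of protein.

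**Figure D4:**
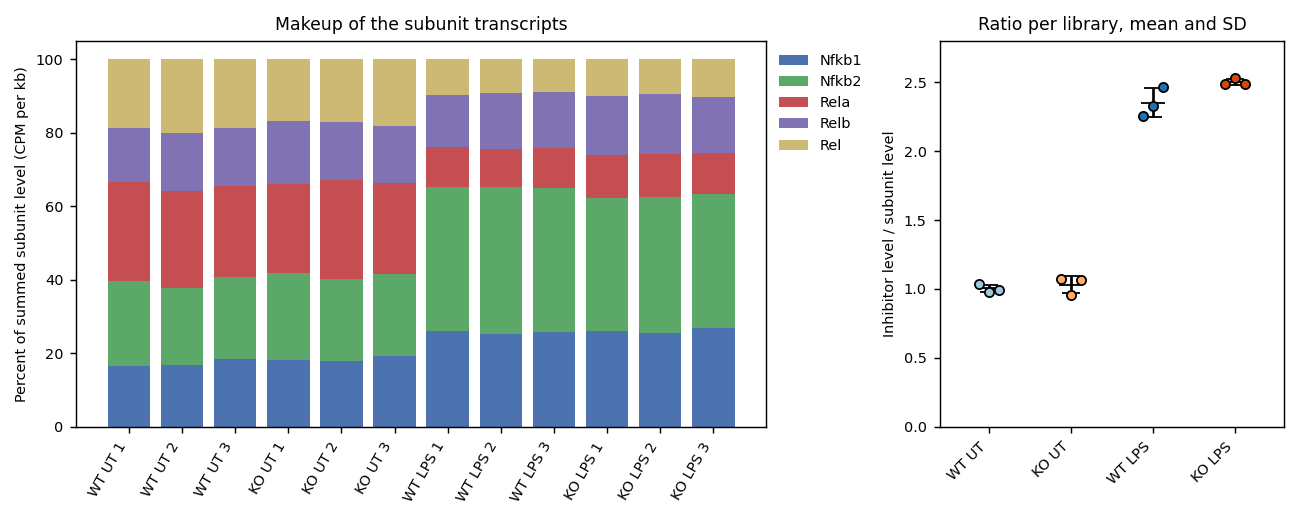
Left, percent of the summed subunit level (CPM per kb of merged exons) held by each of the 5 subunits, as stacked bars for each of the 12 libraries. Right, ratio of the summed level of Nfkbia, Nfkbib and Nfkbie to that of the 5 subunits, with points for libraries and bars for the group mean and SD (n = 3); the ratio ran from 0.958 to 1.07 in UT libraries and from 2.26 to 2.53 in LPS libraries.

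For each of the 8 genes called in both LPS comparisons, the protein-coding gene with the nearest profile was sought by the Euclidean distance of mean-centred log2 CPM over the 12 libraries. The nearest gene to Nfkb2 was Nfkbie (distance 0.314, Pearson r = 0.999), itself one of the 10. The nearest to Nfkbie was Map3k8 (distance 0.200), the gene of the kinase TPL2, which is bound by p105. Nfkbia lay nearest to Il4ra (distance 0.203), Nfkbiz to Dtx2 (0.249), Nfkb1 to March5 (0.256), Relb to Rnf135 (0.208), Rel to Arf4 (0.154) and Nfkbib to Gramd1a (0.314). These correlations are descriptions only, since the 12 libraries share 1 large LPS effect.

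The wider pathway was described with lists of other genes, whose counts stand against the shares of all genes tested. After LPS 38.0% passed as higher and 35.3% as lower in WT, and 35.1% and 37.7% in KO. In KO LPS against WT LPS 7.78% passed as higher and 6.54% as lower, and in KO UT against WT UT 14.1% and 9.69%. Of 9 further IkappaB-family and Rel-binding genes, 4 passed as higher and 1 as lower after LPS in WT, and in KO 3 and 1. Bcl3, which encodes a nuclear IkappaB protein that binds p50 and p52, was the only one called in WT (log2 1.43, SE 0.0930). It had 45.7, 42.8 and 45.7 CPM in WT LPS and 31.0, 33.0 and 39.6 CPM in KO LPS, without overlap (log2 -0.37, SE 0.0911, adjusted p = 0.0090), and was the only gene of the 9 that passed in that comparison. The difference of its LPS responses was -0.46 (adjusted p = 0.021).

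Of 12 kinase genes, 7 passed as higher and 2 as lower after LPS in WT, and 8 and 2 in KO, where 38.0% and 35.1% of all genes passed as higher and 35.3% and 37.7% as lower. Ikbke, the gene of IKK epsilon, had log2 fold changes of 3.14 in WT and 3.15 in KO. Map3k8 had 2.67 and 2.65, and Tbk1 had 1.53 and 1.55. Map3k14, the gene of the non-canonical kinase NIK, was called lower in both genotypes (log2 -1.26 and -1.09). None of the 12 passed in KO against WT, in UT cells or after LPS. Of 5 genes for ubiquitin ligation and release of the inhibitors, 4 passed as higher in WT with none called, and 3 as higher and 1 as lower in KO, where Cul1 (1.04) and Fbxw11 (1.07) were called. After LPS 0 of the 5 differed between the genotypes, and in UT cells 2 passed as higher in KO.

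Of 18 ubiquitin-editing and feedback genes, 15 passed as higher and 1 as lower after LPS in WT, and 17 and 1 in KO, with 11 called higher in each (19.1% and 17.7% of all genes). Tnfaip3, the gene of the ubiquitin-editing enzyme A20, had log2 fold changes of 5.34 in WT and 5.06 in KO. Traf1 had 4.16 and 4.32, Tnip3 3.81 and 3.53, and Tnip1 3.18 and 3.27. In KO LPS against WT LPS 5 of the 18 passed, all lower in KO (6.54% of all genes), and none was called. Tnfaip3 had 1545, 1423 and 1428 CPM in WT LPS and 1172, 1184 and 1219 CPM in KO LPS (log2 -0.30, SE 0.0572, adjusted p = 0.0013). The others were Traf1 (-0.24), Tnip3 (-0.20), Tnip1 (-0.17) and Zc3h12a (-0.21). The median of the 18 was -0.02, and the other 13 did not pass.

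Of 24 genes listed as known NF-kappaB targets, 23 were tested, and all 23 were called higher after LPS in both genotypes, with medians of 7.16 in WT and 6.24 in KO. In KO LPS against WT LPS 14 passed as lower (6.54% of all genes) and 2 as higher (7.78%), and the median was -0.28. Tnf, which the deletion concerns directly, was the only one called (-1.04). Other target genes that were not called were also lower in KO LPS without overlap. Il6 had 438, 479 and 438 CPM in WT LPS and 233, 231 and 234 CPM in KO LPS. Cxcl2 had means of 739 and 487 CPM in these groups, and Nos2 of 1334 and 887 CPM. In UT cells 7 passed as higher (14.1% of all genes) and 5 as lower (9.69%). Cxcl1 was called higher in KO UT (log2 2.03) and Nos2 lower, the latter with 4 to 11 counts in WT UT libraries and 0 to 3 in KO UT libraries. The list had been drawn up with knowledge of earlier results on these libraries, so its direction is not independent evidence.

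**Figure D5:**
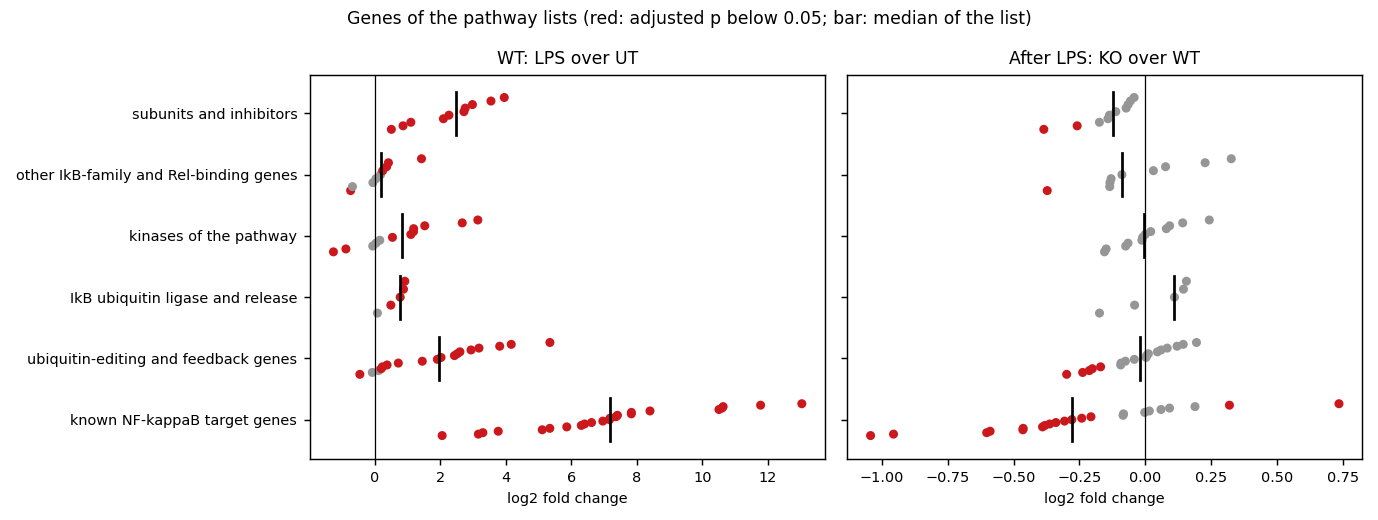
Log2 fold changes (x axis) of each gene in the pathway lists (y axis), for LPS over UT in WT (left) and for KO over WT after LPS (right). Points are genes, red where the edgeR adjusted p was below 0.05, and black bars are list medians, which on the right are -0.12 for the 10 subunits and inhibitors and -0.28 for the target genes.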

How the data were processed

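The deposited table holds raw counts per gene, which the authors made from stranded total RNA libraries (globin-depletion kit, paired-end) with HISAT2 2.1.0 on GRCm38, SAMtools 1.17 and featureCounts 2.0.0, after FastQC 0.11.9. The annotation release, strand setting and treatment of multi-mapping reads are not given in the sources used here. Symbols came from GENCODE by identifier without version (48144 of 48526 matched). Of these genes, 22406 had no counts. The filter filterByExpr (minimum count 10, minimum total 15) kept 15523 genes, which hold 99.96% of counts. A single group-means model over the 12 libraries was fitted by the edgeR 4.0.16 quasi-likelihood test with TMM scaling (limma 3.58.1, R 4.3.3), with Benjamini-Hochberg adjustment over all genes and a common biological coefficient of variation of 0.0712. The script was tested on simulated data. DESeq2 1.42.0 was an alternative. Figures used matplotlib 3.10.9.

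The 10 genes, the lists and the tests were chosen with earlier results of these data known. The named genes are the 10, from each pathway list and comparison at most 4 called genes with the smallest adjusted p, Tnf, and the nearest profile of each gene called in both LPS comparisons. Map3k14, Zc3h12a, Il6, Sirt2, Gm43430 and the markers named are outside this rule and were chosen after their values were seen. Nothing says that libraries of a group came from separate mice, so p-values measure the spread between libraries. The labels give a batch to each library, and it matches the replicate number. The model has no such term, and an alternative took the number as a block. The deviations of same-numbered libraries correlated at -0.0631 to 0.0373 over 18 pairs. No replicate pair differed by counting noise alone (chi-square per degree of freedom of at least 3.80). One marker gene is not reported here.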

Additional observations from a re-analysis of the deposited data

Results flagged for a closer look

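Among the subunits and inhibitors and the list genes that the naming rule covers, 10 genes had a response to LPS that differed between KO and WT by the edgeR test of that difference. Among the subunits and inhibitors these were Nfkb2 (-0.26, adjusted p = 0.043) and Nfkbid (-0.43, adjusted p = 0.0056), on the log2 scale and as KO minus WT. Among the feedback and nuclear inhibitor genes they were Tnfaip3 (-0.28, adjusted p = 0.024), Tnip3 (-0.28, adjusted p = 0.0096) and Bcl3 (-0.46, adjusted p = 0.021). Among the target genes they were Tnf (-0.38, adjusted p = 0.0076), Ccl3 (-0.44, adjusted p = 0.0036), Cxcl1 (-1.30, adjusted p = 2.2e-07), Cxcl2 (-1.10, adjusted p = 1.6e-05) and Bcl2a1b (-1.06, adjusted p = 0.014). With the small RNA covariate Nfkbid (0.29), Tnf (0.036), Ccl3 (0.11) and Bcl2a1b (0.014) turned sign. Other genes of the pathway lists passed this test too, and in all 11 of 23 target genes did, 10 of them lower and 1 higher, where 9.50% of all genes passed as lower and 7.32% as higher. Cxcl1 was higher in KO in both states, with log2 differences of 2.03 in UT and 0.73 after LPS. Bcl2a1b had 31 to 86 counts in UT libraries and is one of a family of near-identical copies, so its counts are uncertain. Groups of 3 libraries were not searched for outlying libraries.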

How the results depend on the processing

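The 2 genes lower in KO LPS passed under each scaling and filter tried. The number that passed there was 4 with upper-quartile scaling, a mean CPM of at least 1 and protein-coding genes only, where the added genes were Nfkb1 and Nfkbie, and 2 to 4 with 1 library left out. With the small RNA covariate it was 3 (Nfkb1, Nfkb2 and Nfkbie). In KO UT it was 2 with DESeq2, RLE scaling, upper-quartile scaling, the mean CPM filter, the compared groups alone and protein-coding genes only, where the added gene was Rel, 4 with library totals and no scaling factors (chosen after seeing the data; Rel, Rela, Nfkbie and Nfkbiz, all lower, and not Nfkbid), and 0 with the small RNA covariate. For the difference of responses it was 1 with DESeq2, RLE scaling, no filter or the replicate block, 0 with the covariate, 3 with protein-coding genes only, where Nfkb1 was added (-0.23, adjusted p = 0.027), and 1 to 3 with 1 library left out. With the replicate block Nfkb2 no longer passed for the difference of responses (adjusted p = 0.065), and no other gene of the 10 stopped passing. The SE of Nfkbid in KO UT was 0.0722 without the small RNA covariate and 0.132 with it.

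Signs that turned were mostly of values near 0, and causes were not tested. In KO UT, DESeq2 gave Nfkb1 -0.025, Nfkb2 -0.068, Relb -0.049 and Nfkbia -0.046, and RLE scaling gave -0.025, -0.068, -0.049 and -0.046. Upper-quartile scaling gave Nfkb2 -0.017 there and Nfkbid -0.11 for LPS in KO. For the difference of responses DESeq2 gave Nfkbia 0.011, Nfkbie 0.0031 and Nfkbiz 0.0062, RLE scaling gave 0.011, 0.0032 and 0.0061, and protein-coding genes only gave Rela -0.021. Library totals gave Nfkbid -0.16 and -0.44 for LPS in WT and KO. In KO UT they gave Nfkb1 -0.10, Nfkb2 -0.15, Relb -0.13, Nfkbia -0.13 and Sod2 -0.0031, and for the difference of responses Relb 0.059, Nfkbia 0.087, Nfkbie 0.079 and Nfkbiz 0.082. The covariate gave Nfkbid 0.095 in KO LPS against WT LPS. In KO UT it gave Relb -0.081, Rel 0.14, Nfkbia -0.059, Nfkbie 0.14, Nfkbiz 0.14 and Nfkbid -0.19. For the difference of responses it gave Rela -0.040, Relb 0.058, Rel -0.34, Nfkbia 0.058, Nfkbib 0.22, Nfkbid 0.29, Tnf 0.036, Ccl3 0.11 and Bcl2a1b 0.014. With 1 library left out the ranges that crossed 0 were -0.12 to 0.0063 for Rel in KO LPS against WT LPS, and in KO UT -0.057 to 0.058 for Nfkb2, -0.028 to 0.075 for Nfkbia, -0.048 to 0.081 for Relb, -0.090 to 0.0044 for Nfkbiz and -0.24 to 0.024 for Nfkbib. The Rela difference of responses ran from -0.026 to 0.083, and the change of the Relb share with LPS in KO from -0.616 to 0.164 percentage points.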

Other observations

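Gm43430, an unconfirmed gene model at chr3:135650670-135654566 inside an intron of Nfkb1 on the same strand, was examined after its values had been seen. It had 35.8, 38.1 and 40.6 CPM in WT LPS and 23.9, 24.3 and 22.0 CPM in KO LPS, a log2 difference of -0.70 (edgeR adjusted p = 4.8e-06), whereas Nfkb1 differed by -0.14 and did not pass. In UT cells it had 5.30 to 5.78 CPM in WT and 5.78 to 6.93 CPM in KO, a log2 difference of 0.19 that did not pass (adjusted p = 0.16). Its LPS response was 2.78 in WT, close to the 2.72 of Nfkb1, and 1.89 in KO, where Nfkb1 had 2.54. After LPS it stayed lower in KO in each fit that left out 1 library (-0.75 to -0.66) and in 10 other alternatives (-0.73 to -0.58). Counts in an intron may come from unspliced Nfkb1 transcripts or from a separate transcript, and gene-level counts cannot tell these apart.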
